A study of Mus musculus with 2 samples.

Results

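Background hotspots of the mock library were taken as 500 bp windows of the mouse autosomes, laid end to end on the mm9 assembly, that held 7 or more mock read midpoints. Each read was extended to 200 bp from its 5′ end, and the middle of that stretch was its midpoint. Stretches of chromosomes 1, 14 and 17 named by the rule were left out. The rule found 1615 windows among 4944451, which is 0.0327% of the autosomal windows. Since the members were chosen by their mock counts, a mock count above the library mean is no finding, and the second library, LUZP1, is the measure that the choice did not use. Members lying within 10 kb of each other were joined into 1374 loci.

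Both libraries came from E14 mouse embryonic stem cells of strain 129P2/OlaHsd at passages 25 to 30, grown without feeder cells. In the LUZP1 library, chromatin was precipitated with rabbit sera against LUZP1, a leucine zipper protein. In the mock library the labels record no antibody, while the design text names GST as the mock reagent. Each group holds 1 library, so no difference below has a replicate check, no p-value is given, and every interval is an exact 95% interval that covers counting error only. The mock file held 2734938 reads of 36 bp and the LUZP1 file 4214959, so LUZP1 counts were multiplied by 0.649 where they are called scaled. No read in either file shared its start and strand with another read of that file, which bounds how many reads a short sequence can hold.

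A mock precipitation recovers chromatin without the antibody of interest, and peak callers subtract it as the local background. Reads pile up in such libraries where many genomic copies of a sequence share few places in the reference, and tandem satellite arrays are the best known case. Mouse pericentromeric heterochromatin is built of the major satellite, an AT-rich tandem repeat, and the centromere core of the minor satellite, which carries the CENP-B box, the DNA motif bound by the centromere protein CENP-B. Neither repeat was annotated in the reference used here, so repeats are described below by their own letters.

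Sequences under members with 20 or more mock midpoints are shown first, because much of what follows turns on how much they resemble each other. All are mm9, plus strand, and each is the part of its member window that held the most whole mock reads, chosen among stretches without an annotated exon. The first lies in a tandem array at the start of chromosome 9 and the next 3 at other loci of the same sequence family. The fifth, in an intron of Cdk5rap2, holds the same letters but aligned over too short a stretch to be joined to the family. Capitals mark the 11 bases AAAATGAGAAA, or their reverse complement TTTCTCATTTT, which were found in all 61 members of that family.
chr9:3027575-3027808: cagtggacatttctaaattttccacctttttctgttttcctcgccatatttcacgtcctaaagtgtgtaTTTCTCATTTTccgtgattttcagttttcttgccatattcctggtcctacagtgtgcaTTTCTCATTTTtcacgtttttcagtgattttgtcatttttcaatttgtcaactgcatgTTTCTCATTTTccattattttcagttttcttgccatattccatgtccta
chr9:35112767-35113000: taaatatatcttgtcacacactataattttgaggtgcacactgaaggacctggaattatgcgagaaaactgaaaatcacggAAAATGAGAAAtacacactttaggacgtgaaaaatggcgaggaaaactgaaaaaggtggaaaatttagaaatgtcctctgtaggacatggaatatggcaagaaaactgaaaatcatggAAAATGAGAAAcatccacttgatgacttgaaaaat
chr4:3017733-3017966: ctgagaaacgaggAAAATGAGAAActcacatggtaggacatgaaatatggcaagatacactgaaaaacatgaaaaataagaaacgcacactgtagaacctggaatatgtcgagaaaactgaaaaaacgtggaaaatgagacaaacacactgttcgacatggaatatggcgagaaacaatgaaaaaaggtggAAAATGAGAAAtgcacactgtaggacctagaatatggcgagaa
chr12:75905258-75905491: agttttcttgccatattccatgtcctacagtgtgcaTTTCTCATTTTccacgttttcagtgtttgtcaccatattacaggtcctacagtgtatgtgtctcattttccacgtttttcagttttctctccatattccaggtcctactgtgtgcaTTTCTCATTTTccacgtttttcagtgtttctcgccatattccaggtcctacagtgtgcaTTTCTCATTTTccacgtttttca
chr4:70039058-70039291: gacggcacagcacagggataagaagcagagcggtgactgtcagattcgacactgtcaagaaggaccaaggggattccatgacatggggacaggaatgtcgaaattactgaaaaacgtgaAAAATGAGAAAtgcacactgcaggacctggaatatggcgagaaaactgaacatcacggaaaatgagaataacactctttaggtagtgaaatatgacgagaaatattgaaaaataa

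By BLAST against the chromosome 9 array, the chromosome 9 stretch at 35 Mb was 94.0% identical over 199 aligned bases, the chromosome 4 stretch at 70 Mb 87.7% over 138, the chromosome 12 stretch 82.4% over 238 and the chromosome 4 stretch at 3 Mb 80.6% over 227. The letters AAAATGAGAAA were picked as an 11-base word shared by the most members of the family. Nothing is therefore read from their share of members. On either strand they stood in 75 of 1615 members (4.64%) and in 11719 of all 4944451 windows (0.237%). So 0.640% of the windows with these letters were members, and the letters alone did not mark a member. The major satellite contains this stretch of letters, as background.

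The tallest member of all lay elsewhere in sequence, in the chromosome 2 locus of Gm10800 and Gm10801. Capitals mark a match to the CENP-B box, searched as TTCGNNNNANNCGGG on both strands.
chr2:98502753-98502986: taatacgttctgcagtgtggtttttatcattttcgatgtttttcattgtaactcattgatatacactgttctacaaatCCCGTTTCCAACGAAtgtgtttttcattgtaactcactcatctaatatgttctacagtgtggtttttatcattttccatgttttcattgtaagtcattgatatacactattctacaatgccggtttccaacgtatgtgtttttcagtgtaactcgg
This box was found in 5 members and in 534 of all windows (0.0108%). The 5 members held 193, 158, 61, 29 and 26 mock midpoints, and 3 of them lay in the chromosome 2 locus, 1 in Chl1 and 1 at chr9:24346501-24347000. The telomere repeat written 3 times in a row, TTAGGGTTAGGGTTAGGG, was in 0 members and in 373 of all windows.

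Some members were short tandems, as shown by a stretch of chromosome 17 that repeats every 5 bases. The last stretch came from the deep member with the lowest mock to LUZP1 ratio. Neither holds the capitals of the families above.
chr17:4626280-4626399: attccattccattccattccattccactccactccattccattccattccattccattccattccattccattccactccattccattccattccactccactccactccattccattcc
chr11:108873098-108873331: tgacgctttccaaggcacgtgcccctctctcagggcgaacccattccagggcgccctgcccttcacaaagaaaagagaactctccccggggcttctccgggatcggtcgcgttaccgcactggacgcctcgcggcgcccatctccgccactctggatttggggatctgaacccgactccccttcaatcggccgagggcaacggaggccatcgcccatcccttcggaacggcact

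Most members stood alone and were shallow. Of the 1374 loci, 1329 were 1 window, 33 were 2 windows and 12 were 3 or more. By mock count, 1032 members held 7 midpoints, 288 held 8, 92 held 9 and 203 held 10 or more. Members with 10 or more are called deep here and the others shallow, and the 203 deep members fell in 59 loci, which are called deep loci. Members together took 14542 mock midpoints, 0.532% of that library (interval 0.523% to 0.540%), and 7551 LUZP1 midpoints, 0.179% of that library (0.175% to 0.183%).

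LUZP1 was high in most deep members and in few shallow ones. LUZP1 midpoints scaled to the mock total reached 7, which takes 11 unscaled midpoints, in 205 of 1615 members (12.7%), against 0.00645% of all autosomal windows. Put the other way, 64.3% of the 319 windows that passed in LUZP1 were members. That share includes the chromosome 11 stretch given below, which held many of them. With a looser rule, 5 times the mean LUZP1 window, 302 members passed (18.7%) against 1.06% of all windows. Among the 1412 members with 7 to 9 mock midpoints, LUZP1 passed at the first rule in 50 (3.54%), its median was 1 midpoint and 512 windows held none. Among the 203 deep members it passed in 155 (76.4%), its median was 18 and 4 windows held none. A single stretch of chromosome 11, at 3.0 to 3.2 Mb, held many of these windows. Without it LUZP1 passed in 90 of 1489 members: in 21 of 1379 shallow ones (1.52%) and in 69 of 110 deep ones (62.7%). All 14 members with 50 or more mock midpoints passed.

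In mean LUZP1 the members just inside the threshold were close to the windows just outside it, though a larger share of them passed. Windows with 6 mock midpoints, 4487 in number, held a LUZP1 mean of 1.26 midpoints and 10 of them passed (0.223%). Windows with 7 held a mean of 1.43 and 13 passed (1.26%). The mean was 2.44 at 8 mock midpoints, 7 at 9, 8.14 at 10 and 16.4 at 11, while the median was 1 at 8 and 3 at 9. The chromosome 11 stretch carried much of that rise. Without it the mean was 1.34 at 7 mock midpoints, 1.94 at 8, 3.96 at 9, 4.61 at 10 and 7.33 at 11, the last over 9 windows. Also without it, 6 of 4479 windows with 6 mock midpoints passed and 8 of 1026 with 7. Windows without a mock midpoint had a LUZP1 mean of 0.792, and the mean of all windows with no unknown base was 0.857.

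**Figure D1:**
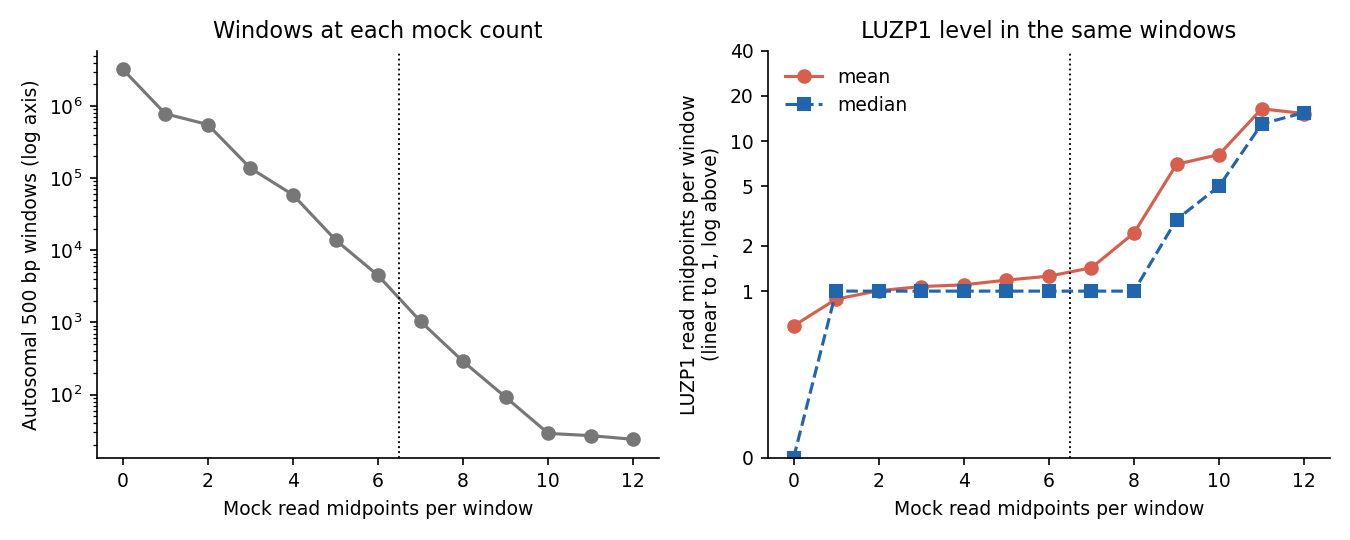
Left, the number of autosomal 500 bp windows (log axis) at each mock midpoint count from 0 to 12. Right, the mean (circles) and median (squares) LUZP1 midpoints of the same windows; the dotted line marks the threshold of 7. The LUZP1 mean is 1.26 at 6 mock midpoints, 1.43 at 7 and 7 at 9; without chromosome 11 at 3.0 to 3.2 Mb, which is included here, it is 3.96 at 9.

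The mock to LUZP1 ratio, with LUZP1 scaled, was 2.97 over all members (2.89 to 3.05). It was 5.65 (5.42 to 5.89) over the members with 7 to 9 mock midpoints and 1.37 (1.31 to 1.42) over the deep ones. Mock counts chose the members and set this split, and the intervals do not allow for that choice. These ratios are therefore a description, and nothing is read from their size or their contrast. The interval of the single window lay above 1 in 1163 members, in a background of 1.10% of windows with a read, but the rule used mock counts and nothing is read from that number. It lay below 1, with LUZP1 higher, in 9 members (0.557%), against 0.0255% of windows with a read. Of those 9, 7 were in Sfi1.

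**Figure D2:**
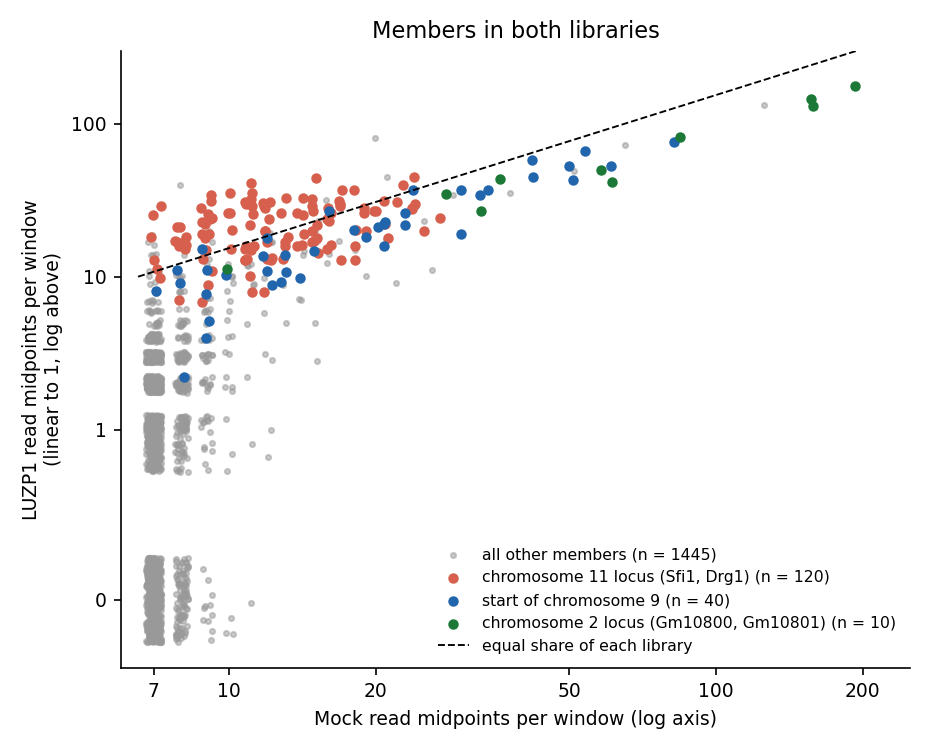
Each point is 1 of the 1615 member windows, with mock midpoints on the x axis (log) and LUZP1 midpoints on the y axis (linear to 1, log above), jittered. Coloured points are the 3 loci with the most mock midpoints, and the dashed line is the place of windows with an equal share of each library. The 120 windows of the chromosome 11 locus straddle the line, while the chromosome 2 windows lie below it.

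The arrangement of reads within the members was also examined. Reads on opposite strands that faced each other at the library's usual distance, 88 to 183 bp in mock and 64 to 106 bp in LUZP1, were joined so that each pair could be counted once. In mock, 76.9% of the reads of the shallow members were in such pairs, against 54.8% over the autosomes and 53.4% in the deep members. The rule counts both reads of a pair and so favours windows whose mock reads come in pairs, and nothing is read from the mock shares. In LUZP1, which the rule did not use, the share in pairs was 37.7% in the shallow members and 46.4% in the deep ones. Over the autosomes it was 35.3%. Reads of unrelated fragments can be joined where reads are dense, and LUZP1 averaged 27.2 times its library mean in the deep members. How much this raised the shares was not tested. Counting each pair once left 228 members at 7 or more; since 1032 members sat at exactly 7, a single joined pair is enough to take such a window below the threshold. The shallow members were mostly single copy: 69.3% of them had every 36-base word present once in the genome. That share was 53.9% in 9583 windows taken at every 500th position and 24.6% in the deep members. Of the mock starts in all members, 97.3% were at words present once, so the rule can favour windows rich in such words. Nothing is read from the excess over the 9583 windows. Median GC content was 44.0% in the shallow members, 41.5% in the deep ones and 41.8% over all windows.

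Depth was concentrated in 3 loci, which held 170 member windows (10.5%), 3309 of the 14542 mock midpoints (22.8%) and 128 of the 203 deep windows. They lay on chromosomes 11, 9 and 2 and are taken in turn.

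The chromosome 11 locus, chr11:3027001-3100000, was a block and not a peak. Of its 146 windows, 120 were members. Over all 146, mock ranged from 0 to 27 midpoints with a median of 11, and LUZP1 from 4 to 45 with a median of 19.5. The mean was 20.9 times the library mean in mock and 24.0 times in LUZP1. Both libraries stopped at the same window: over the next 100 kb, mock was 1.40 times and LUZP1 1.32 times its mean, and no window was a member. The stretch before the block held 21 mock and 28 LUZP1 midpoints in 44 windows. A smaller locus at chr11:3001001-3005000 had 6 members with 77 mock and 49 LUZP1 midpoints. The plot of the region shows these edges.

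**Figure D3:**
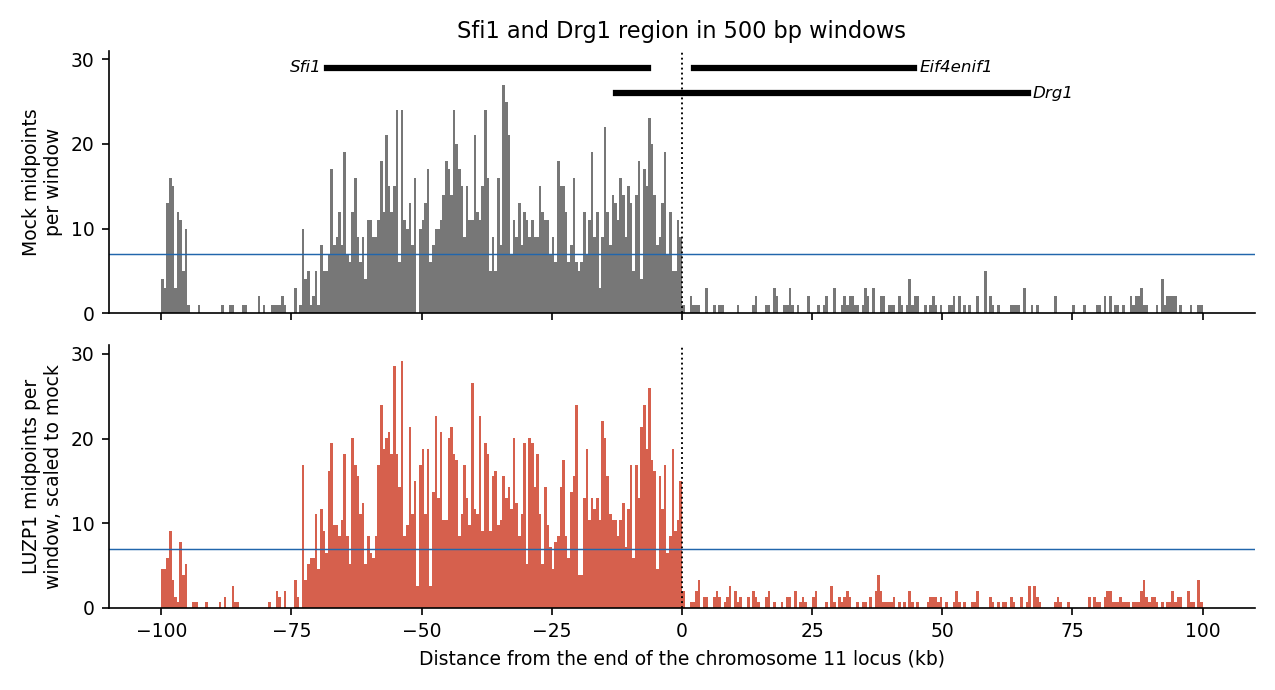
Mock midpoints (top, grey) and scaled LUZP1 midpoints (bottom, red) in 500 bp windows of chromosome 11, by distance in kb from the end of the locus (dotted line). Black bars are Sfi1, Drg1 and Eif4enif1, and the blue line is 7 midpoints. Both libraries are high through Sfi1 and the near end of Drg1 and near their means beyond the dotted line.

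Most of the block was Sfi1, which encodes a centrosome protein that binds centrin, at chr11:3031853-3093466 on the minus strand. Over its 124 windows mock held 1495 midpoints and LUZP1 2619, and 107 windows were members. A further member fell within 500 bp of its coding start, giving the gene 108. Drg1, which encodes a GTP-binding protein, was cut by the edge: its 26 windows inside the block held 319 mock and 545 LUZP1 midpoints with 22 members, and its 133 windows beyond held 110 and 148 with no member. Eif4enif1, which encodes a protein that binds the translation factor eIF4E, began at 3102395, just after the edge, and had 73 mock and 109 LUZP1 midpoints in 86 windows and no member. Smaller annotated genes inside the block were as high: Gm11399 had 51 mock and 97 LUZP1 midpoints in 3 windows, Gm11400 34 and 72 in 3, Gm12735 43 and 67 in 2, and Fau-ps2, a pseudogene, 32 and 44 in 2. Pisd-ps1, at the near edge, had 45 and 120 in 12 windows, 2 of them members.

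The block was high over exons and introns. Its 59 windows with an exon averaged 12.5 mock and 22.3 LUZP1 midpoints, and the other 87 averaged 10.97 and 19.4. The sequence was almost single copy in the reference, with a median of 95.1% of 36-base words found once. Over the members of the block the mock to LUZP1 ratio was 0.915 (0.859 to 0.974), so LUZP1 was slightly higher even though mock counts chose the windows; over all 146 windows it was 0.868 (0.817 to 0.921). With autosomal reads as the totals the ratio over members was 0.920 (0.864 to 0.979). Scaling by non-member windows of the same GC content gave 1.02 over members and 0.969 over all 146 windows, and counting pairs once gave 0.9995 (0.926 to 1.08) over members, so the direction depended on the scaling.

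The authors' deposited peak list for LUZP1 has 47 entries, and none overlapped a member, where 0.00105% of all windows overlap one. The design text says the list was repeat masked. Within the chromosome 11 block lay 2 of the listed peaks, one in Sfi1 and one in Drg1, in windows just under the threshold. The Sfi1 peak, chr11:3079687-3079840, lay in a window of 6 mock and 37 LUZP1 midpoints. The Drg1 peak, chr11:3098309-3098552, touched a window of 5 and 29 and another of 5 and 14. Among the block's members, the interval of the mock to LUZP1 ratio lay below 1 in 7, all in Sfi1, for example 15 against 44 at chr11:3044501-3045000 and 7 against 29 at chr11:3081501-3082000.

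The chromosome 9 locus, chr9:2999501-3038500, lies where the sequence of that chromosome begins, and 1 of its members holds no known base. Its 40 members held 917 mock and 947 LUZP1 midpoints, and the ratio of 1.49 (1.36 to 1.64) became 1.15 with the GC-matched scale. Mock ran from 7 to 82 midpoints in a member, and the highest, chr9:3000001-3000500, held 82 mock and 76 LUZP1 midpoints. Of the 77 windows of chr9:3000001-3038500, 39 were members. Over all 77, mock ranged from 0 to 82 midpoints with a median of 7, and LUZP1 from 0 to 76 with a median of 5. In the members of the locus only a median of 12.4% of 36-base words occurred once, and the median word had 10 copies. The array repeated with a lag of 234 bases, the unit length of the major satellite, at an identity of up to 96.6%. The window whose stretch is printed first above, chr9:3027501-3028000, held 23 mock and 26 LUZP1 midpoints.

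Annotated over this array are gene models of the series Gm10715 to Gm10722 and the long noncoding RNA Gm16869, which spans it whole with 39 members. Gm10722 held 119 mock and 124 LUZP1 midpoints in 3 members, Gm10717 99 and 110 in 4, Gm10718 75 and 67 in 4, Gm10106 68 and 60 in 3, Gm10719 65 and 71 in 3 and Gm10720 65 and 67 in 3. Gm17535 held 62 and 67 in 2, Gm10716 40 and 47 in 2, Gm11168 33 and 37 in 3 and Gm10715 28 and 23 in 2. Before scaling, the libraries were thus near each other in every one of these models, though LUZP1 is the deeper library.

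The chromosome 2 locus, chr2:98502001-98508000, was shorter and taller. Its 10 members held 818 mock and 745 LUZP1 midpoints. Their ratio was 1.69 (1.53 to 1.87), and 1.36 with the GC-matched scale. The tallest window of the genome under the rule, chr2:98502501-98503000, held 193 mock and 177 LUZP1 midpoints, and the next, chr2:98506501-98507000 and chr2:98507001-98507500, held 158 and 131, then 157 and 146. The lowest member of the locus held 10 and 11. Gm10801 covered 5 of the members (404 mock, 380 LUZP1) and Gm10800 3 (325 and 288). Here 2 windows matched themselves best at a lag of 120 bases, the unit length of the minor satellite, at 65.5% and 52.1% identity. The median window had 45.3% of its words found once. By contrast, chr2:98506501-98507000 and chr2:98507001-98507500 belonged to the sequence family of the chromosome 9 array. Their best lag was 58 bases, at 44.4% and 51.6% identity. Also of that family were chr2:98503501-98504000, with 36 mock and 44 LUZP1 midpoints, and chr2:98504001-98504500, with 84 and 82.

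The 3 loci differed in whether the libraries shared read starts. In the chromosome 9 locus 378 of 913 mock starts (41.4%) were also LUZP1 starts on the same strand, and in the chromosome 2 locus 369 of 822 (44.9%). In the chromosome 11 block it was 33 of 1566 (2.11%). LUZP1 reads filled 16.1% of the starts with a once-only word in the chromosome 9 locus, 17.2% in the chromosome 2 locus and 2.43% in the block, so the shared part exceeded the filled part in both satellite-like loci and not in the block. The share was 52.8% at chr9:35112501-35113500 and 50.8% at chr4:70039001-70039500, where LUZP1 filled 12.4% and 6.85%. The filled part is pooled over each locus and counts once-only words, while the shared part counts all mock starts. Reads were uneven across the windows of the chromosome 9 and 2 loci, so the shared and filled parts are not like for like.

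Over all members, 51 (3.16%) matched themselves at 60% identity or more at a lag of up to 250 bases, against 0.564% of the windows taken at every 500th position. The most common lag was 234 bases, in 25 of them, and 31 lay between 233 and 235. Joining members that aligned over 200 bases at 80% identity gave 12 families that covered 95 members. The first family, to which the first 4 printed stretches belong, had 61 members in 11 loci on chromosomes 2, 3, 4, 8, 9, 11, 12, 16 and 18. It held 1721 mock and 1664 LUZP1 midpoints and thus had a ratio of 1.59 (1.49 to 1.71). Of the 51 members that matched themselves, 40 were in this family and shared its 11 loci, so they are not separate cases. A family whose 4 members all matched themselves best at a lag of 120 bases lay on chromosomes 2, 4 and 6 and held 295 mock and 254 LUZP1 midpoints. No member aligned to the mitochondrial genome, and 0 aligned over 200 bases at 90% to the 45S ribosomal DNA copy of chromosome 17. That copy was not known to hold the large-subunit part, so the search could not tell whether a member resembles that part.

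Several deep loci outside the first 3 carried satellite-like or short tandem sequence. The pair of windows at chr9:35112501-35113500, in no gene, held 176 mock and 181 LUZP1 midpoints, and its ratio was 1.499 (1.21 to 1.85). A single window in an intron of Cdk5rap2, a centrosome gene, chr4:70039001-70039500, held 65 and 72, with no member beside it. Near the start of chromosome 4, chr4:3016501-3018500, 4 windows in no gene held 76 and 60. At chr12:75905001-75906000, 2 windows held 45 and 36. In Chl1, which encodes a neural cell adhesion protein, chr6:103599001-103599500 overlapped an exon, held 29 and 34 and had the CENP-B box. The short tandem of the chromosome 17 stretch, chr17:4626001-4626500, held 21 and 45, and a like 5-base repeat in an intron of Ano2, a chloride channel gene, at chr6:125827001-125827500, held 15 and 23.

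Other deep loci overlapped genes. In introns of Brd3, which encodes a bromodomain protein that reads acetylated histones, 5 members between 27352501 and 27357500 of chromosome 2 held 50 mock and 55 LUZP1 midpoints, with 14 and 20 as the highest. Of the 36-base words in the 2 deep windows of Brd3, 57.6% and 63.4% were found once. Acacb, which encodes an acetyl-CoA carboxylase, had 15 and 15 in 1 member, Plxdc2 19 and 22 in 2 and Rin2 13 and 13 in 1, and in their deep windows 75.4%, 97.6% and 99.8% of the words were found once. Sp110, a nuclear body gene with a median of 23.7% of words found once, had 23 and 24 in 2. In each of these genes the intervals of the ratio spanned 1. Runs of members lay also in clusters of Gm gene models: chromosome 4 had 6 loci with 14 members at 145 to 146 Mb (123 mock, 72 LUZP1) and 5 loci with 18 members at 146 to 147 Mb (148 and 114), and at chr8:19924501-19946000, 9 members held 80 and 65. The chromosome 8 run was multi-copy, with a median of 13.6% of words found once, 4 copies of the median word and a best self-match of 90.1% identity.

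Of the 59 deep loci, 34 had at least 1 window that passed in LUZP1 and 25 had none. The 34 had a median of 78.0% of words found once, and 0 were single copy throughout by the median window. Of the 25 without, 14 were single copy, and none exceeded 13 mock midpoints in a window, where the 34 reached 193. Ratios of the 34 and the 25 are not compared, because the split itself used LUZP1 counts. Examples are chr10:107184001-107184500, with 11 mock and 0 LUZP1 midpoints, so that the interval of the ratio begins at 3.87, an intron of Kif6 with 11 and 1 (16.9-fold, interval 2.46 to 730) and an intron of Tdrd3 with 10 and 1. Cntln had a window of 10 and 0, with an interval that begins at 3.46. These loci were chosen for high mock, and the split and the examples for low LUZP1, so nothing is read from their ratios.

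**Figure D4:**
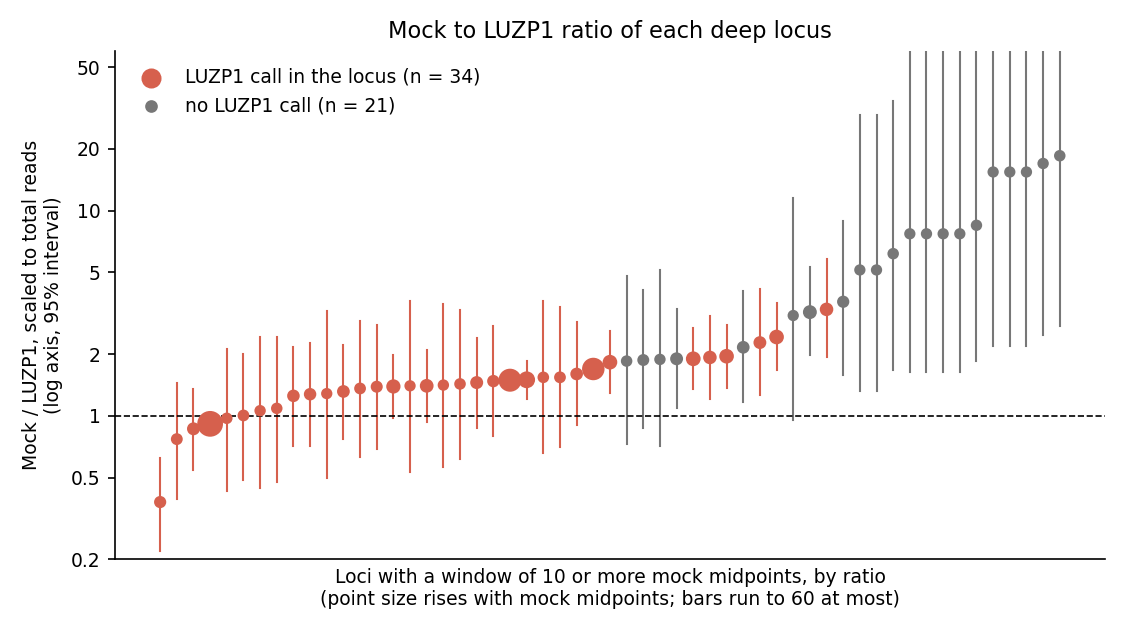
Mock to LUZP1 ratio, scaled to total reads (log axis), of the deep loci with at least 1 LUZP1 midpoint, in order of ratio, with exact 95% intervals drawn to 60 at most. Red loci have a window that passed in LUZP1 (n = 34) and grey loci have none (n = 21); the 4 deep loci without a LUZP1 midpoint are not drawn. Larger points hold more mock midpoints. The colours follow LUZP1 counts, so their order along the ratio is set by the colouring. Of all 59 deep loci the interval lay above 1 in 31, included 1 in 26 and lay below 1 in 2. Deep loci were chosen for high mock counts, which favours ratios above 1, so nothing is read from the 31.

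Shallow loci seldom reached the 11 LUZP1 midpoints needed to pass. Of the 1315 loci without a window of 10, 10 held a window that passed, 11 of their 1339 windows in all (0.822%), against 0.00645% of all windows. LUZP1 averaged 1.66 times its library mean in those 1339 windows, and 512 of them held none. The highest was chr5:147072501-147073000 in Cdk8, which encodes the kinase of the Mediator complex, and in an annotated microRNA, AC113316.1: it held 8 mock and 40 LUZP1 midpoints, so its ratio was 0.308 (0.125 to 0.668). A window of Dux, a double homeobox gene, held 8 and 14, a window in an intron of Auts2 7 and 14, and 2 windows of Pisd-ps2 on chromosome 17 held 7 and 14, then 9 and 19. The deep window with the most LUZP1 over mock, printed above, was chr11:108873001-108873500 in no gene, with 20 and 81, a ratio of 0.381 (0.221 to 0.627). Its printed letters resemble part of the large-subunit ribosomal RNA, whose genes lie in arrays of many copies that the assembly mostly lacks. Whether its reads came from this place or from such copies was not tested, so the counts may not belong to this locus.

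Genes were more often under members than under windows at large. Of 1615 members, 959 (59.4%) overlapped a gene, against 42.3% of windows with no unknown base, and 17.03% overlapped an exon against 7.56%. For comparison, 47.4% of all mock midpoints were in windows with a gene and 9.50% in windows with an exon. In the deep members 76.9% overlapped a gene and 34.0% an exon, many of them in Sfi1 and the gene models of chromosome 9. In the shallow members the shares were 56.9% and 14.6%. Neighbouring windows of a locus are not independent, and the large loci weigh most in the deep shares. By locus, 26 of the 59 deep loci lay in no gene. The same held for 44.5% of all 1374 loci and for 57.3% of windows with no unknown base. In all, 802 genes overlapped a member, 73 of them with 2 or more, and 3.49% of protein-coding genes had a member within 500 bp.

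Genes of the complexes that the series is about were too few to set apart from that 3.49%. No gene of the histone acetyltransferase complexes ATAC (16 matched) or SAGA (15) had a member within 500 bp. Cdk8 was the only one of 28 Mediator genes that had one, the window given above, which overlapped the exon of AC113316.1 and no exon of Cdk8. Taf15 was the only one of 11 genes listed for TFIID, with 2 shallow intron windows of 8 mock and 2 LUZP1 midpoints and of 7 and 0. Among 16 pluripotency genes, Klf5 had an intron window of 7 and 1 and Tcl1 a window near its coding start of 9 and 0. Of 13 housekeeping genes, Tbp had a window of 8 and 2 over an exon. The list of loci known for tandem or high signal had 14 of 17 genes with a member; it was put together with the Sfi1 region already named, and so says nothing independent.

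Around the deep loci both libraries stayed raised for a few kilobases. In windows below the threshold of 7 mock midpoints and within 0.5 kb of a deep locus, mock averaged 3.86 times and LUZP1 4.64 times its library mean. Without the chromosome 11 stretch at 3.0 to 3.2 Mb these were 3.30 and 3.25, so LUZP1 no longer exceeded mock. Over all deep loci, with that stretch included, the values at 0.5 to 1 kb were 2.66 and 2.87. They were 1.56 and 1.46 at 2 to 5 kb, and 1.13 and 1.10 at 10 to 50 kb. Around the other loci the values began at 1.49 and 1.39 and were still 1.17 and 1.22 at 10 to 50 kb. Neighbours were limited to windows under the threshold, which lowers the mock values most where members crowd.

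**Figure D5:**
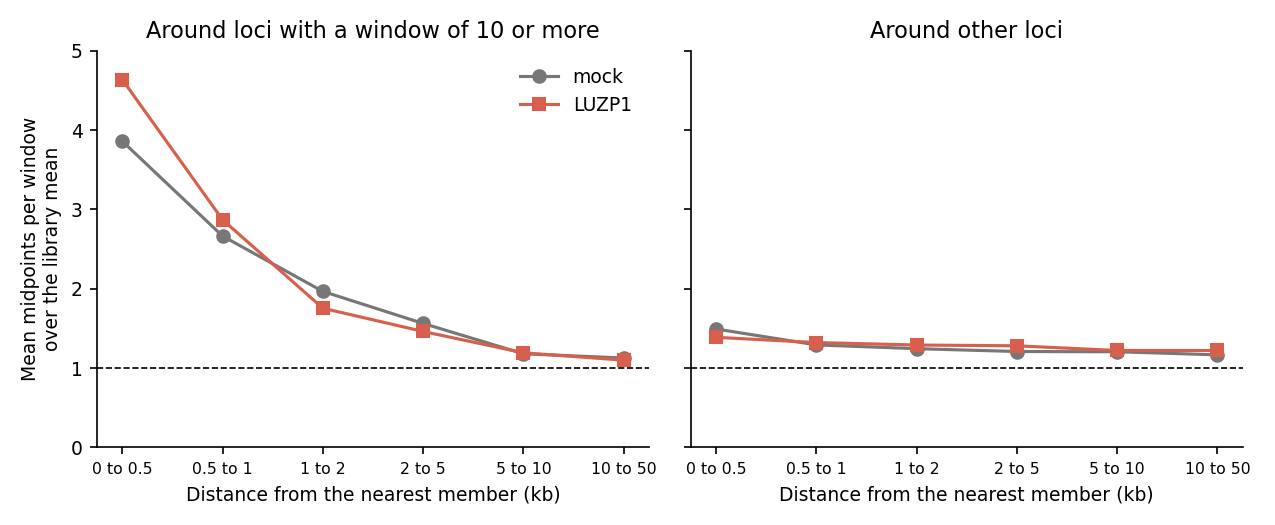
Mean midpoints per 500 bp window over the library mean (y axis) against distance from the nearest member in kb (x axis), for mock (circles) and LUZP1 (squares), in windows with fewer than 7 mock midpoints. Near deep loci (left) the values fall from 3.86 and 4.64, or 3.30 and 3.25 without the chromosome 11 stretch, which is drawn in, to 1.13 and 1.10. Near the other loci (right) they run from 1.49 and 1.39 to 1.17 and 1.22.

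Along the chromosomes, shallow loci were most frequent on chromosome 11, with 91.0 per 100 Mb of known sequence, and least on chromosome 18, with 35.4. Mean midpoints per window were also highest on chromosome 11, 0.654 in mock and 1.06 in LUZP1, and on chromosome 18 they were 0.496 and 0.785. The part of mean depth in the number of loci was not tested. Of 979 megabases with a locus, 75 held 3 or more and 4 held 5 or more. The latter were chromosome 1 at 88 to 89 Mb, with 6 loci that took 42 mock and 10 LUZP1 midpoints in and near Psmd1, Dis3l2, Htr2b and Alppl2, chromosome 4 at 145 to 146 and 146 to 147 Mb, and chromosome 11 at 116 to 117 Mb.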

How the data were processed

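Both read files were deposited by the authors as one line per aligned read, used here as counts, with no duplicate start and strand. Per the series' design text, reads were aligned to mm9 with ELAND allowing 1 mismatch, peaks were called with MACS, and the listed peaks were filtered by size and repeat masked. Reads were extended to 200 bp and midpoints counted in 500 bp windows (Python 3.11.15, scipy 1.17.1). The deposited peak list gives positions only. Ratios carry exact Clopper-Pearson 95% intervals on the share of mock among both counts. Copies of 36-base words, GC content and lags were computed on NCBIM37, which is mm9, genes were taken from GENCODE vM1, and families came from BLAST 2.17.0 (80% identity over 200 bases). Named genes overlap a member of 10 or more midpoints, hold 2 or more members, lie in the chromosome 11 cluster or belong to a fixed list, the 30 with the most mock midpoints first; the others named were chosen after their values were seen. The members and lists were chosen with earlier results of these data known. Window counting, intervals, pairing and lags were tested on simulated reads.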

Additional observations from a re-analysis of the deposited data

How the results depend on the processing

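No paired analysis was possible because each group has 1 library. The reference held no masked bases, so the planned share of repeat-masked sequence was not run; the share of members with under 50% of 36-base words found once, 4.77%, stands in for it, was chosen after seeing the data, and was 2.85% for under 20%. Against 1615 members, a minimum of 5 mock midpoints gave 20052, a minimum of 10 gave 203 and pairs counted once gave 228. Against a pooled ratio of 2.97, these gave 5.77, 1.37 and 1.49, extension to 150 bp gave 3.10, to 300 bp 2.57 and none 2.52, leaving out the chromosome 11 cluster gave 4.10 and 1 window per locus 5.67. LUZP1 passed in 205 members, in 123 of 228 with pairs counted once, in 90 of 1489 without the chromosome 11 cluster and in 38 of 1374 with 1 window per locus. Members overlapping a gene, 59.4%, were 54.9% with protein-coding genes and 17.03% with exons. The rest were added after seeing the data. The GC-matched scale moved the chromosome 11 ratio from 0.915 to 1.02, which turned its direction, the chromosome 9 ratio from 1.49 to 1.15, the chromosome 2 ratio from 1.69 to 1.36, the shallow ratio from 5.65 to 5.91 and the deep ratio from 1.37 to 1.30. Pairs counted once gave 0.9995 on chromosome 11, 1.67 on chromosome 9, 4.91 for shallow and 1.48 for deep members. Without the chromosome 11 cluster the deep ratio was 1.64, LUZP1 passed in 69 deep and 21 shallow members in place of 155 and 50, and the LUZP1 mean was 3.96 at 9 mock midpoints, 4.61 at 10 and 7.33 at 11, in place of 7, 8.14 and 16.4. The cause was not tested. In 28 of 60 comparisons with an alternative the value stayed within the interval, or within 1.5 times a count or level. Depth limits single windows: at 7 mock midpoints, a LUZP1 count of 0 cannot be told from a few.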

Other observations

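Windows with 7 or more mock midpoints were also found on the sex chromosomes, which the rule does not cover. On chromosome Y there were 135, with 2373 mock and 2840 LUZP1 midpoints and so a ratio of 1.29 (1.22 to 1.36), and LUZP1 scaled to the mock total reached 7 in 97 of them (71.9%). The highest, chrY:2876501-2877000, held 54 mock and 71 LUZP1 midpoints and lay in no annotated gene. Chromosome X had 32 such windows, with 393 mock and 399 LUZP1 midpoints, and LUZP1 passed in 16. The highest on X lay in Pgk1, which encodes a glycolytic kinase, and held 40 mock and 3 LUZP1 midpoints.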
